A study of Gasterosteus aculeatus with 29 samples.

Results

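Whole brains of three-spined stickleback (Gasterosteus aculeatus) were compared between 3 exposed groups and an unexposed group, called neither. In an exposed group the father, the fish itself or both had met a predation cue. For their higher expression in every exposed group than in neither, 100 genes were chosen. They were taken from the 17730 genes of the deposited table, of which 16593 had a log2 CPM (log2 of reads relative to a scaled library size) above 0 in at least 5 of the 27 libraries used. For each exposed group the pooled two-sample t against neither was computed on log2 CPM. All 3 t were above 0 in 5366 genes, and the 100 genes with the highest value of their smallest t were kept. The smallest t of these 100 lay between 2.55 and 4.41, with a median of 2.82. The same 4 neither fish serve as the comparison in all 3 t, so the 3 differences of a gene are not independent. The genes were thus chosen by their log2 CPM in these same fish, and the differences from neither are given below as a description, with no test.

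Fish of the both group had an exposed father and were themselves exposed to predation risk as juveniles (6 libraries, 4 fathers, 4 females and 2 males). Paternal only fish had an exposed father and no exposure of their own (8 libraries, 5 fathers, 5 females and 3 males). Personal only fish were exposed as juveniles and had an unexposed father (9 libraries, 5 fathers, 5 females and 4 males). Neither fish and their fathers were unexposed (4 libraries, 3 fathers, 2 females and 2 males). By the labels each library is 1 fish, and fathers met the predation cue while they tended their broods. Fathers are nested in paternal exposure, so the father's exposure and the family cannot be told apart fish by fish. A library labelled both replicate 7 and one labelled neither replicate 3 were left out of the choice of genes. Replicate numbers within a group follow deposition order.

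Stickleback fathers guard and fan the nest and tend the fry, so young fish can meet predation risk through their father as well as on their own. In fish, predator cues act on the brain through vision, smell and the lateral line, and engage the stress axis that runs from the hypothalamus through the pituitary to cortisol-secreting interrenal cells. Whole-brain RNA averages all brain regions and cell types. In such bulk RNA, fewer cells of a type and less RNA per cell cannot be told apart. The identifiers of the table are not paired with symbols in the sources used here, and 0 of them matched the reference table. No gene is therefore given a name or role, and neither the tissue label nor the content of other cell types could be checked with marker genes.

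The 27 libraries held 2244609 to 55155451 reads in the gene table, and the 4 neither libraries among them held 3313717 to 20965092. Of the left-out libraries, both replicate 7 held 19835515 reads and neither replicate 3 held 4422208. Neither replicate 3 stood apart over the table. The quartiles of its gene-by-gene deviations from the median of the libraries lay 1.52 log2 units apart, where those of the other libraries lay 0.248 to 0.479 apart. Both replicate 7 is labelled male. For ENSGACG00000012640, a gene with a sex difference in these brains, both replicate 7 had 2.49 log2 CPM, where the females had 1.71 to 2.93 and the males 4.74 to 5.71. It lay within the female range for all 4 of the genes checked, the 2 leading ones of each direction. Neither replicate 3, also labelled male, had 5.18. It lay within the male range for 2 of the 4 genes and between the sexes for the other 2.

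The differences of the 100 genes were modest. Above the neither mean, the median gene was 0.42 log2 units (1.33-fold) higher in both, 0.37 (1.29-fold) higher in paternal only and 0.29 (1.22-fold) higher in personal only. Over all genes tested the same medians were 0.00, 0.00 and -0.01. The 100 genes ranged from 0.19 to 1.39 in both, from 0.13 to 1.36 in paternal only and from 0.16 to 1.13 in personal only. In 68 genes all 3 differences were under 0.5, and in 2 genes all 3 were above 1. The difference was largest in both for 66 genes, in paternal only for 26 and in personal only for 8. It was smallest in personal only for 75 genes. The order both, then paternal only, then personal only held for 54 genes. Over all genes tested the quartiles of these differences were -0.16 and 0.16 in both. They were -0.14 and 0.13 in paternal only and -0.12 and 0.10 in personal only. A given t asks for a larger difference in a group with fewer fish or a wider spread. The order of the groups therefore follows in part from the choice, and nothing is read from these counts.

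The 100 genes had mean levels from 0.00 to 7.95 log2 CPM. Their median level was 4.23 log2 CPM, against 3.54 over all genes tested, and 61 of the 100 lay above this median of all genes. Their median residual SD around the group and sex means was 0.177 log2 units, against 0.188 for tested genes within 0.5 log2 CPM of the same level. The t statistic divides by this spread, so a low spread follows in part from the choice. Read numbers were low for a few: 6 of the 100 genes had under 10 reads in at least 1 of the 27 libraries, and the lowest was 3 reads. The median gene had 90 reads in the library where it had fewest.

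**Figure D1:**
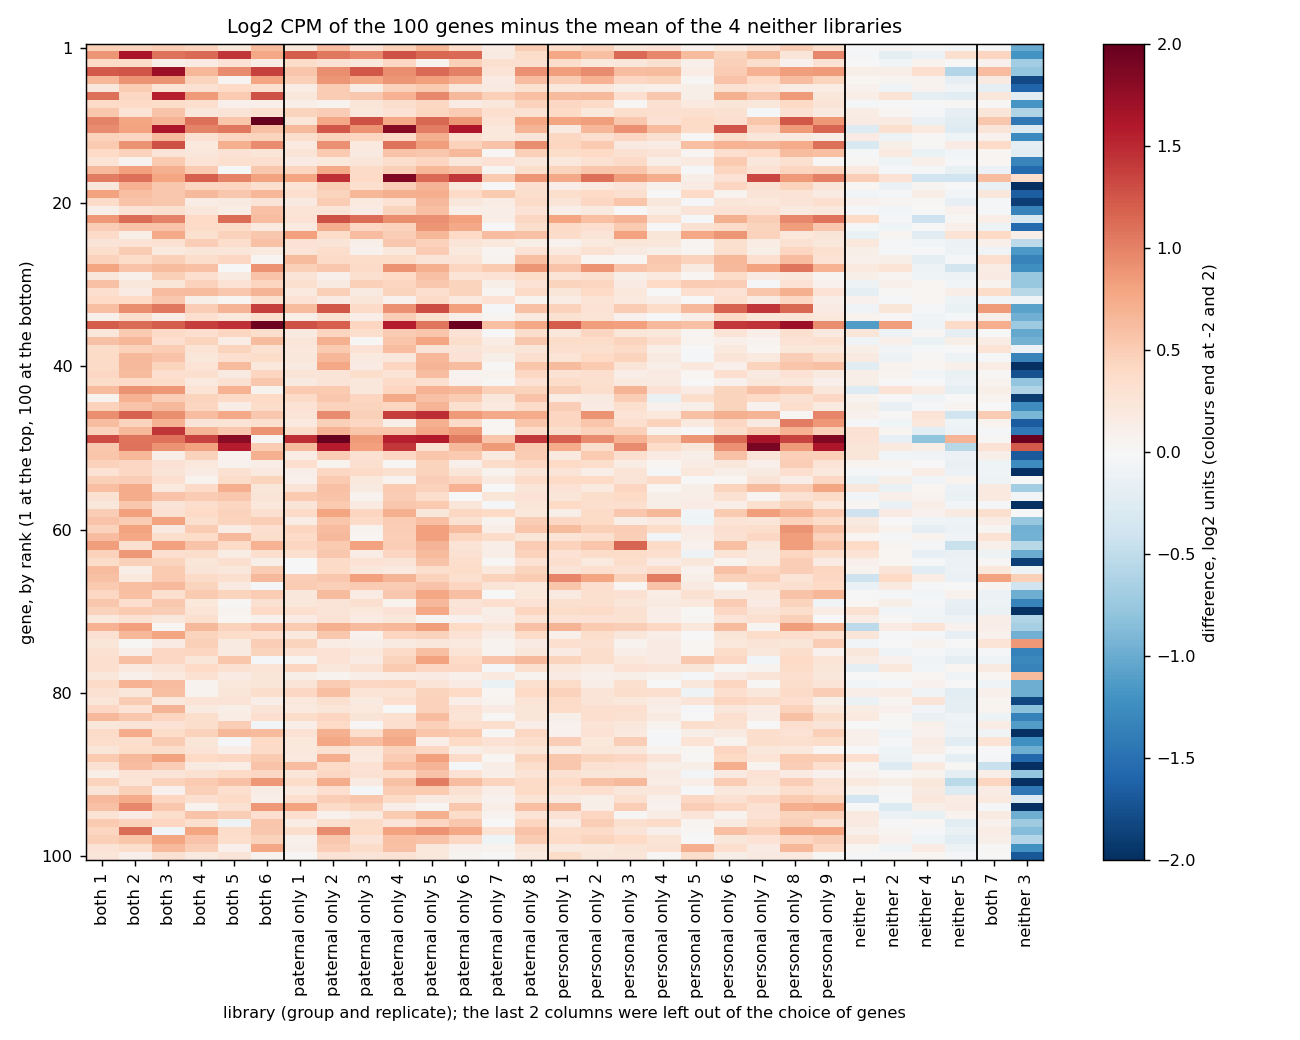
Rows are the 100 genes by rank and columns are libraries, with colour giving the log2 CPM minus the mean of the 4 neither libraries used in the choice (red higher, blue lower). The 23 exposed libraries are mostly red, paternal only replicate 7 and personal only replicate 5 are pale, and of the 2 columns at the right, left out of the choice, both replicate 7 is pale and neither replicate 3 mostly blue.

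Only a few of the 100 genes separated the groups without overlap. In 3 genes all 23 exposed libraries lay above all 4 neither libraries. These 3 were the only such genes among those tested (0.0181% of genes tested). Taken group by group, all both libraries lay above all neither libraries in 56 of the 100 genes (2.03% of genes tested), all paternal only libraries in 25 (0.56%) and all personal only libraries in 8 (0.211%). For 98 of the 100 genes the lowest of the 27 libraries was a neither library, and in 52 genes it was neither replicate 5. The choice used these contrasts and favoured low values in the neither fish. Nothing is read from any of these counts.

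The gene ranked 1, ENSGACG00000008549, was 1 of the 3. It had 4.12, 4.34 and 4.51 log2 CPM (lowest, median and highest) in both, 4.04, 4.30 and 4.54 in paternal only, 3.96, 4.20 and 4.37 in personal only, and 3.88, 3.91, 3.87 and 3.86 in neither replicates 1, 2, 4 and 5. The neither fish averaged 3.88 ± 0.02 log2 CPM (SD, n = 4), and the lowest exposed fish, personal only replicate 5, was just above them. Between 105 and 2083 reads stood behind each of its values.

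ENSGACG00000012874, ranked 6, had 5.82, 5.90 and 6.09 log2 CPM in both, 5.74, 5.85 and 6.11 in paternal only, 5.69, 5.74 and 5.89 in personal only, and 5.68, 5.50, 5.66 and 5.51 in neither. The gap between the groups was narrow, with 5.69 in the lowest exposed fish and 5.68 in the highest neither fish. ENSGACG00000006805, ranked 10 and named here after its values were seen, had 1.16, 1.49 and 2.74 log2 CPM in both, 0.84, 1.38 and 1.87 in paternal only, 0.88, 1.16 and 1.84 in personal only, and 0.76, 0.78, 0.46 and 0.39 in neither. Its lowest exposed fish stood at 0.84 and its highest neither fish at 0.78.

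ENSGACG00000020611, ranked 2, had 2.14, 2.47 and 2.98 log2 CPM in both, 1.54, 2.46 and 2.64 in paternal only, 1.61, 1.99 and 2.49 in personal only, and 1.34, 1.16, 1.25 and 1.68 in neither. Paternal only replicate 7 and personal only replicate 8 fell within the neither range, which neither replicate 5 set at its upper end. The means were 1.16 log2 units above neither in both, 0.92 in paternal only and 0.71 in personal only. ENSGACG00000005494, ranked 4, had 2.18, 2.75 and 3.23 log2 CPM in both, 1.78, 2.44 and 2.76 in paternal only, 1.67, 2.20 and 2.46 in personal only, and 1.63, 1.65, 1.85 and 0.93 in neither. The both fish all lay above the neither fish, while single fish of the other groups overlapped them. Across the whole table the limma fit of both minus neither called 3 genes at an adjusted p under 0.05 (0.0181% of genes tested), all higher. The 3 included ENSGACG00000020611 and ENSGACG00000001969, which ranked 19 and is named after its values were seen. ENSGACG00000001969 had 2.76 ± 0.10 log2 CPM in both (SD, n = 6) and 2.12 ± 0.09 in neither (SD, n = 4). Paternal only minus neither and personal only minus neither called 0% of genes each. The choice of the 100 used these contrasts, and no support is taken from the calls.

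The largest differences belonged to genes with few reads. ENSGACG00000005245 averaged 1.20 log2 units above neither over the 3 exposed groups, with -0.24, 0.89 and 1.50 log2 CPM in both, 0.25, 1.14 and 2.08 in paternal only, 0.20, 0.85 and 1.54 in personal only, and -0.02, -0.47, -1.11 and 0.39 in neither. It rested on 4 to 335 reads per library, and its groups overlapped. ENSGACG00000005663 averaged 1.19 log2 units above neither, with 1.02, 1.20 and 1.83 log2 CPM in both, 0.33, 1.03 and 1.85 in paternal only, 0.48, 0.83 and 1.61 in personal only, and -1.22, 0.73, -0.20 and 0.27 in neither. Its neither fish spread over nearly 2 log2 units on 3 to 303 reads per library across all groups. The log2 scale carries a prior of 0.25 reads, which understates differences of such genes.

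At the other end, ENSGACG00000011818 was the most abundant of the 100, at a mean of 7.95 log2 CPM, and had the smallest mean difference, 0.16. It had 7.91, 8.02 and 8.12 log2 CPM in both, 7.89, 7.94 and 8.01 in paternal only, 7.77, 7.97 and 8.14 in personal only, and 7.82, 7.84, 7.85 and 7.73 in neither. Personal only fish overlapped the neither fish, and the other exposed fish lay above them. ENSGACG00000006279, next in abundance at 7.76, had 7.74, 7.88 and 8.02 log2 CPM in both, 7.51, 7.85 and 8.06 in paternal only, 7.55, 7.73 and 7.93 in personal only, and 7.75, 7.41, 7.53 and 7.33 in neither. Neither replicate 1 stood among the exposed fish for this gene. The least abundant of the 100 were ENSGACG00000013293, at a mean of 0.00 log2 CPM on 4 to 210 reads, and ENSGACG00000017219, at 0.47 on 6 to 168 reads.

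Genes just inside and just outside the choice had nearly equal values of the smallest t, at unlike levels and differences. ENSGACG00000004403, ranked 99, had a smallest t of 2.55 with means of 2.62 log2 CPM in both, 2.45 in paternal only, 2.54 in personal only and 2.18 in neither. ENSGACG00000011014, ranked 100, also had 2.55, with 4.40 log2 CPM in both, 4.37 in paternal only, 4.40 in personal only and 4.21 in neither. Outside the choice, ENSGACG00000012964 had 2.55, with 2.19 log2 CPM in both, 1.96 in paternal only, 1.97 in personal only and 1.55 in neither. ENSGACG00000018313 had 2.54, with -0.03 log2 CPM in both, -0.56 in paternal only, -0.49 in personal only and -1.95 in neither. It rested on 2 to 81 reads per library. All 4 had their smallest t in paternal only.

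**Figure D2:**
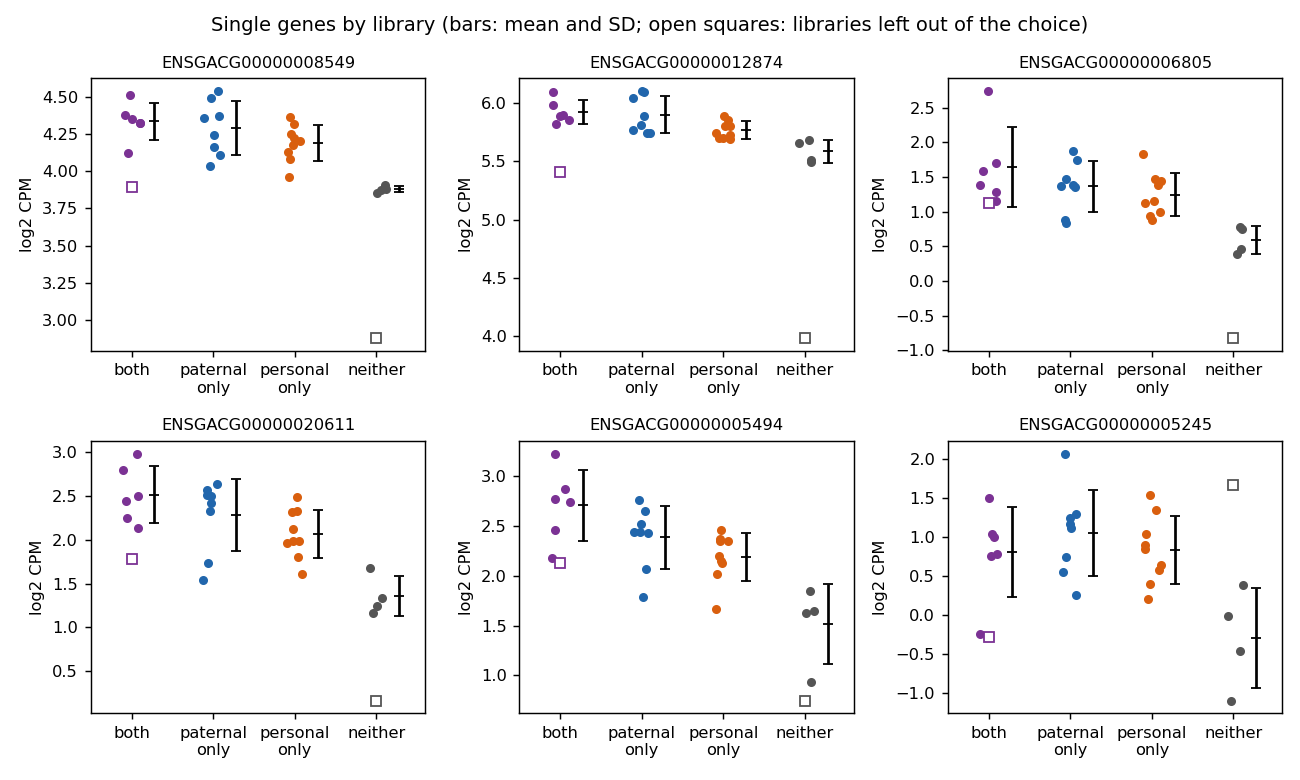
Each panel gives log2 CPM of 1 gene in every library, by group, with the mean and SD beside the points and open squares for both replicate 7 and neither replicate 3. In the 3 upper panels all exposed libraries used lie above the 4 neither libraries, while in the 3 lower panels the groups overlap.

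Exposed fish differed among themselves in how far the 100 genes stood above neither. Over the 100 genes, the median difference from the neither mean lay between 0.34 and 0.52 log2 units in the both libraries, between 0.15 and 0.58 in paternal only, between 0.12 and 0.44 in personal only, and between -0.10 and 0.08 in neither. Paternal only replicate 5 was the highest fish, and 24 of the 100 genes peaked there. The lowest exposed fish were personal only replicate 5, at 0.12, and paternal only replicate 7, at 0.15. As given below, personal only replicate 5 and neither replicate 5 were the closest pair of libraries. Over all genes tested, the same medians lay within 0.02 of 0 in every one of the 27 libraries.

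**Figure D3:**
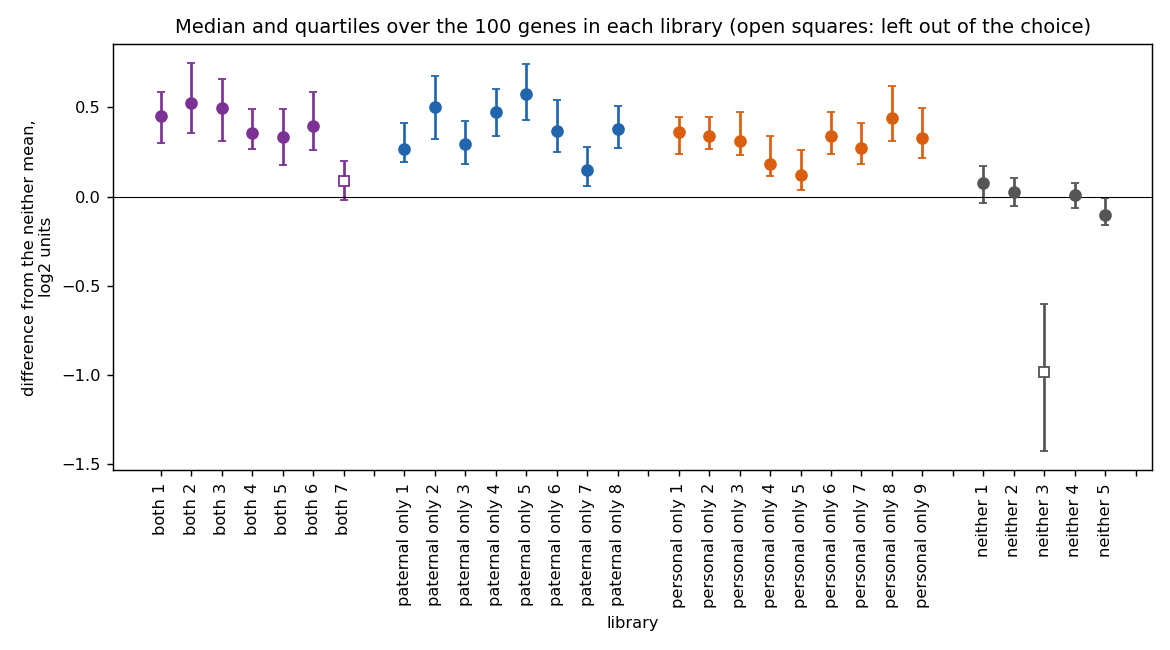
Points give, for each library, the median over the 100 genes of the log2 CPM minus the mean of the 4 neither libraries, and bars span the quartiles over genes. The 23 exposed libraries in the choice lie between 0.12 and 0.58, the 4 neither libraries between -0.10 and 0.08, and the open squares, both replicate 7 and neither replicate 3, at 0.09 and -0.98.

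Exposed minus neither was also taken by sequencing lane and by sex, and personal only minus neither by family. Lane 4 held no neither library of the 4. Exposed minus neither, the median over the 100 genes was 0.35 log2 units in lane 5, 0.39 in lane 6, 0.29 in lane 7 and 0.33 in lane 8, each against 1 neither fish. Personal only minus neither among siblings was 0.26 in the family of father M20 (2 fish against 1). It was 0.22 in that of M8 (2 against 1) and 0.16 in that of M33 (1 against 2). The M33 personal only fish is personal only replicate 5, which with neither replicate 5 formed the closest of 351 pairs of libraries. They differed at 1.79 times the variance of read sampling, against 4.60 times for the next pair. Whether these 2 libraries are independent was not tested. By sex, exposed minus neither was 0.32 in females (14 fish against 2) and 0.37 in males (9 against 2). Families of exposed fathers held no neither fish, so both and paternal only could not be set against neither among siblings. The same 4 neither fish and the same exposed fish underlie the choice and these values. Their positive sign follows at least in part from the choice, and they are a description.

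The left-out libraries give values that the choice did not use, for 1 fish each, set against fish that it did use. In both replicate 7 the 100 genes stood at a median of 0.09 log2 units above the neither mean, against 0.34 to 0.52 in the other both libraries. It lay below all 6 other both libraries in 71 of the 100 genes, where this held for 12.5% of genes tested, and above all 4 neither libraries in 31, where this held for 17.8%. It was within the range of the 4 neither libraries in 63 of the 100 genes, the same share as over all genes tested (63%), and below all 4 in 6 (19.2% of genes tested). In this fish 72 of the 100 genes were above the neither mean, against 50.9% of genes tested. It was closer to the neither mean than to the mean of the other both libraries in 76 of the 100 genes (9764 of 16593 genes tested). The choice favoured low values in the 4 neither fish, so a fish outside the choice tends to lie above them. Likewise it favoured high values in the 6 other both fish. When left out of the choice in turn, each with its own gene list, these 6 stood 0.31 to 0.51 log2 units above the neither mean. In them 88 to 100 of the 100 genes then chosen lay above that mean. Neither replicates 1, 2, 4 and 5 were also left out in turn, as described below. Of the 100 genes then chosen, 96, 86, 91 and 56 lay above the remaining neither mean in these fish. Shares over all genes tested are thus no measure of the counts against the neither fish. For ENSGACG00000008549 both replicate 7 had 3.89 log2 CPM, within the neither range. The genes standing highest in it were ENSGACG00000017219, at 0.86 above the neither mean, and ENSGACG00000003001, at 0.81. The lowest were ENSGACG00000012874, at -0.17, and ENSGACG00000002910, at -0.44. This library carries a male label with values of a female for sex-differing genes, and the part of that in its position was not tested.

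In neither replicate 3 the 100 genes were far lower than in any other library, at a median of -0.98 log2 units from the mean of the 4 neither libraries. It lay below all 27 libraries in 84 of the 100 genes, where this held for 30.3% of genes tested, and above all 27 in 2, where this held for 29%. It was more than 1 log2 unit below the neither mean in 48 of the 100 genes (18.2% of genes tested). ENSGACG00000019304 stood at -3.50 and ENSGACG00000012937 at -2.75 from the neither mean. Against this, ENSGACG00000005245 stood at 1.98 and ENSGACG00000013293 at 1.22. This library stood apart over the whole table, and the part of that in the low values of the 100 genes was not tested. With both left-out libraries put in, the rule gave a list that shared 48 genes with the 100.

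**Figure D4:**
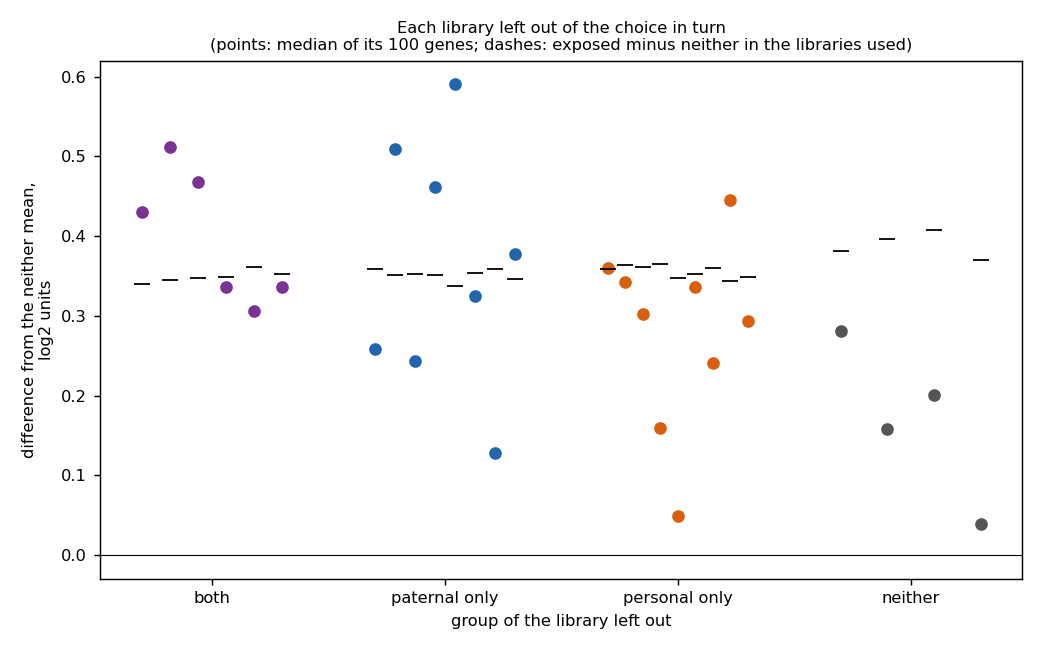
Each of the 27 libraries was left out of the choice in turn. Points give the median, over the 100 genes then chosen, of the left-out library minus the mean of the remaining neither libraries, and dashes give exposed minus neither in the libraries used. Left-out neither fish lie between 0.04 and 0.28, and left-out exposed fish between 0.05 and 0.59.

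Each of the 27 libraries was also left out of the choice in turn, which gives values in a fish that did not choose the genes. This was added after the data had been seen. For the genes then chosen, the left-out fish stood above the mean of the remaining neither fish by 0.31 to 0.51 log2 units (median 0.38) in both, 0.13 to 0.59 (median 0.35) in paternal only, 0.05 to 0.45 (median 0.30) in personal only and 0.04 to 0.28 (median 0.18) in neither. Thus each of the 4 left-out neither fish also lay above the neither fish that chose the genes. Neither replicate 1 stood at 0.28, above 6 of the 23 exposed fish, neither replicate 4 at 0.20, neither replicate 2 at 0.16 and neither replicate 5 at 0.04. Each value has its own gene list, and a left-out neither fish is set against fewer neither fish. The rank among exposed fish therefore compares unlike values. In the libraries used, exposed minus neither was 0.37 to 0.41 with a neither fish left out. The lists themselves moved most with the neither fish: 52 of the 100 genes were kept without neither replicate 1, 63 without replicate 2, 58 without replicate 4 and 68 without replicate 5. Leaving out an exposed fish kept 75 to 93, the lowest without personal only replicate 5. In all, 18 genes were kept whichever of the 27 libraries was left out. They included the 10 genes of highest rank.

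Differences among the exposed groups were not part of the rule, although it used the same fish. They were tested with limma over all 16593 genes, with sex as a term and father as a random block. Both minus personal only called 0 of the 100 genes at an adjusted p under 0.05 (0.00603% of genes tested, or 1 gene). The smallest adjusted p among the 100 was 0.512 in this limma fit. At an unadjusted p under 0.05 there were 14 of the 100 genes, all higher in both (7.34% of genes tested), and the median difference over the 100 was 0.10 log2 units. With both replicate 7 put back there were 8 of the 100 (6.46% of genes tested), and the median was 0.06. With all 29 libraries there were 3 of the 100 (4.39% of genes tested), and the median was 0.05. In all, 88 of the 100 genes had a higher fitted mean in both than in personal only, against 50.9% of genes tested. At equal spread, a given t against neither asks for a larger difference in both, with 6 fish, than in personal only, with 9. Higher values in both than in personal only therefore follow in part from the choice. No support is taken from the 14 and the 88 genes. The largest both minus personal only difference was that of ENSGACG00000005494, at 0.51 ± 0.18 (SE; limma adjusted p = 0.586), followed by ENSGACG00000015378 at 0.46 ± 0.16. ENSGACG00000015378 had 1.97, 2.53 and 3.11 log2 CPM in both, 1.79, 2.12 and 2.51 in paternal only, 1.67, 2.10 and 2.40 in personal only, and 1.69, 1.82, 1.38 and 1.32 in neither. Its both and personal only fish overlapped. The lowest differences were -0.10 ± 0.15 for ENSGACG00000003001 and -0.07 ± 0.14 for ENSGACG00000016862.

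Both minus paternal only called 0 of the 100 genes (0% of genes tested) in limma, with 2 of the 100 at an unadjusted p under 0.05 (4.66% of genes tested), and limma-voom on recovered reads called 0 genes as well. The median difference over the 100 was 0.03 log2 units, with a range of -0.21 to 0.36. This median was -0.0056 with both replicate 7 put back and -0.00064 with all 29 libraries. ENSGACG00000015378 led at 0.36 ± 0.15 (SE), and ENSGACG00000005663 had 0.32 ± 0.27. On the other side ENSGACG00000005245 had -0.21 ± 0.28 and ENSGACG00000019397 had -0.17 ± 0.11. Among siblings the sign of the median of both minus paternal only over the 100 genes varied. It was 0.15 in the family of father M11 (1 both fish against 2 paternal only) and 0.14 in that of M15 (2 against 1). It was -0.03 in that of M43 (2 against 1) and -0.11 in that of M42 (1 against 2). Both replicate 7, also of father M11, is not in these values, and they are not adjusted for sex.

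Paternal only minus personal only called 0 of the 100 genes (0% of genes tested) in limma, with 4 of the 100 at an unadjusted p under 0.05 (3.44% of genes tested). Limma-voom called 2 genes of the table and 0 of the 100. The median difference over the 100 was 0.06 log2 units. ENSGACG00000005535 had 0.35 ± 0.19 (SE) and ENSGACG00000012260 had 0.31 ± 0.22. The lowest were ENSGACG00000013743, at -0.13 ± 0.12, and ENSGACG00000004403, at -0.09 ± 0.11. A difference that misses the threshold does not show that the groups were alike, and the SE of these contrasts had a median of 0.09 to 0.10 over the 100 genes.

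Sex was the other contrast outside the rule. Limma called 609 genes of the table by sex (3.67% of genes tested), 513 higher in females, and 0 of the 100. At an unadjusted p under 0.05 there were 2 of the 100, against 13% of genes tested, and limma-voom called 1 of the 100. The median female minus male difference over the 100 genes was 0.02 log2 units, with a range of -0.16 to 0.24. This median was 0.04 with both replicate 7 put back and 0.11 with all 29 libraries. ENSGACG00000013293 had 0.24 ± 0.20 (SE) and ENSGACG00000012260 had 0.24 ± 0.16. On the male side ENSGACG00000005973 had -0.16 ± 0.12 and ENSGACG00000005245 had -0.14 ± 0.21. Genes with a wide spread between the sexes within a group have a lower t, so few sex differences among the 100 follow in part from the choice.

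Within groups, the 100 genes moved together from fish to fish. After group and sex means were removed, the median Pearson r over the 4950 pairs of the 100 genes was 0.25, with 5% and 95% points at -0.17 and 0.64, across 27 libraries. Over all pairs of genes tested the median was -0.001, with 5% and 95% points at -0.43 and 0.44. Of the pairs among the 100, 83.8% were positive, against 49.8% of all pairs. The same rule turned round, for genes lower in every exposed group, gave a list with a median r of 0.20 and 80% positive pairs. Co-variation of this kind is therefore not particular to the 100 genes. The parts of the choice and of the higher level of the 100 genes in it were not tested. Genes share libraries and depth, and these correlations are a description with no test.

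**Figure D5:**
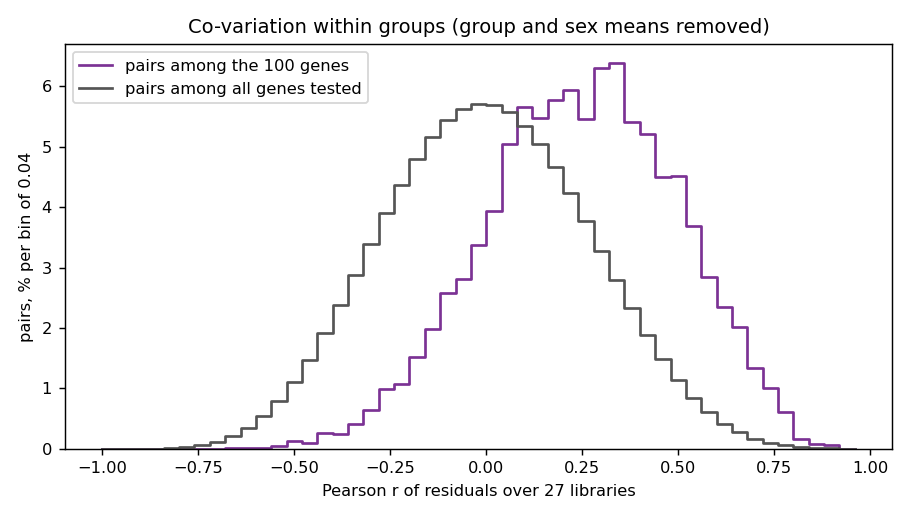
Lines give the percentage of gene pairs per bin of Pearson r, computed on residuals from group and sex means over 27 libraries, for pairs among the 100 genes and for pairs among all genes tested. Pairs among the 100 genes centre on 0.25 and all pairs on 0.00.

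The median profile of the 100 genes over the 27 libraries matched single members with r between 0.35 and 0.93 (median 0.73). ENSGACG00000010214, named after its value was seen, was closest, at 0.93, and ENSGACG00000006560, likewise, farthest. Outside the 100, 88 of 16493 genes reached an r of at least 0.73 with this profile. Each of the 100 genes enters the profile, and the group differences behind the choice were left in it. High r among the 100 therefore follows at least in part from the choice, and nothing is read from the 88 genes. The 2 nearest genes outside the 100 were ENSGACG00000013467, at 0.90, and ENSGACG00000000917, at 0.85. ENSGACG00000013467 had 6.14, 6.21 and 6.53 log2 CPM in both, 5.86, 6.11 and 6.43 in paternal only, 5.66, 5.95 and 6.38 in personal only, and 5.97, 5.56, 5.87 and 5.55 in neither. Its personal only fish overlapped the neither fish over much of their range.

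The study asks whether the cues of father and offspring add. For the 100 genes, the both minus neither difference had a median of 0.42 log2 units, and the sum of the single-exposure differences had a median of 0.66. Both was below the sum in 100 of the 100 genes, against 49.7% of genes tested. The neither mean enters the sum with more weight than it enters the both difference. A choice of genes with low neither values therefore raises the sum more than the both difference. The count follows at least in part from the choice, and the size of that part was not tested. Nothing is read from it on additivity.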

How the data were processed

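Poly-A RNA of single whole brains was sequenced single-end, per the labels' protocols. The labels' protocols state 9 paternal only fish, while the samples hold 8, and all 8 were analysed here. The submitters' processing notes name edgeR, HTSeq 0.6.1, TopHat2 2.0.8 and CASAVA 1.8.2, and list NCBIM37, the name of a mouse build, although the identifiers are of stickleback. Annotation and strand setting are not given in the sources used here. Values of overlapping genes and paralogs are therefore uncertain. The authors deposited log2 CPM for 17730 genes in 29 libraries. The lowest value, -6.77, equals 0 reads plus the prior, and whole reads were recovered for 100% of values within 0.01 reads. Counts describe counting error only. Members were chosen by pooled t without both replicate 7 and neither replicate 3. The members, lists and tests were chosen with earlier results of these data known. Tests used limma 3.58.1 with a mean-variance trend (limma-trend), run in R 4.3.3 with statmod 1.5.0. The fit held 4 group means, sex and father as a random block (consensus sibling correlation 0.168), with Benjamini-Hochberg adjustment over 16593 genes. The limma fit and the choice of genes were run on simulated data with known changes put in, as a check of the code only. The simulated fish had no family effect. P-values measure the spread between single fish, with siblings tied by the father block. The father's exposure was replicated over fathers, not fish. Both held 4 fathers, paternal only 5, personal only 5 and neither 3. Named genes are at most 2 at each end of each property described, and others are marked.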

Additional observations from a re-analysis of the deposited data

Results flagged for a closer look

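In 100 sets of values, made of library measures and of the named genes by group, 6 had a lowest or highest sample far from its own group. Chance alone picks out about 1 set in 20.

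The median of the 100 genes in both replicate 7 was 0.0898 log2 units above the neither mean, below 0.34 to 0.52 in the other both libraries. In neither replicate 3 it was -0.98, below -0.10 to 0.08 in the other neither libraries. The spread of neither replicate 3 around the median library was 1.52 log2 units, above 0.266 to 0.337 in the other neither libraries. The parts of sex label and library quality in these positions were not tested.

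ENSGACG00000016862 had 2.48 log2 CPM in both replicate 5, below 3.03 to 3.36 in the other both libraries. ENSGACG00000012937 had 1.38 in neither replicate 5, below 2.04 to 2.16 in the other neither libraries. ENSGACG00000013743 had 4.35 in neither replicate 4, above 4.06 to 4.11 in the other neither libraries.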

How the results depend on the processing

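Counts of called genes in limma moved with most settings for both minus personal only and both minus neither. For the other contrasts of groups they moved with limma-voom alone, and both minus paternal only called 0 genes under all 15 alternatives. Genes called by sex were 525 to 647 over the 11 alternatives other than limma-voom, against 609 as reported. For both minus personal only the 1 called gene became 0 with 1 value per father and personal condition, with all 29 libraries, with lane as a term and with quantile-normalized values. It became 2 without the father block and 2 without the sex term, and 15 in limma-voom on recovered reads. Leaving out each neither fish gave 0 to 1. For both minus neither the 3 called genes became 0 with 1 value per father and personal condition, with both replicate 7 put back and with lane as a term, 6 without the father block and 14 in limma-voom, and leaving out each neither fish gave 0 to 1. Limma-voom called 2 genes for paternal only minus personal only, 1 for paternal only minus neither, 1 for personal only minus neither, and 1110 by sex, among them 1 of the 100 genes. Library sizes in limma-voom were the authors' scaled sizes, and TMM factors were not recomputed. Direction turned for 2 named genes and 1 median: ENSGACG00000016862 in both minus personal only had 0.0332 with lane as a term, and ENSGACG00000005245 in female minus male had 0.23 in limma-voom. The median over the 100 genes of both minus paternal only was -0.0056 with both replicate 7 put back and -0.00064 with all 29 libraries, against 0.03 as reported. The cause was not tested. The rule kept 66 of the 100 genes with Welch t in place of pooled t, 89 with quantile-normalized values, 97 with no filter and 98 with a minimum of 1 log2 CPM. With the 29 libraries the median difference of the 100 genes was 0.57 in both, 0.56 in paternal only and 0.50 in personal only, against 0.38, 0.34 and 0.28 in the fit without the left-out libraries. The 29 include neither replicate 3, where these genes had a median of -0.98 from the neither mean and the spread over the table was 1.52. The part of that library in the larger differences was not tested. Replicate numbers follow deposition order and pair no fish, so no analysis was paired by them. Siblings were tied by father instead. Father as a fixed block among siblings of both and paternal only also called 0 genes. With 4 neither fish from 3 fathers, each of them bears on every difference from neither.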

Other observations

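The rule turned round, with all 3 t below 0 and the 100 genes that led on that side, gave genes whose residuals went against those of the 100 higher genes. Between the lists the median Pearson r over 10000 pairs was -0.20 across 27 libraries, and within the lower list it was 0.20. The lower genes stood at a median of -0.16 log2 units from the neither mean in both replicate 7, against -0.48 to -0.30 in the other both libraries, and at 0.66 in neither replicate 3, against -0.03 to 0.05 in the other neither libraries.

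Of 351 pairs of libraries, personal only replicate 5 and neither replicate 5 differed least, at 1.79 times the variance of read sampling, and the next pair at 4.60 times. Both are labelled as males of father M33 sequenced in lane 6, and whether these libraries are independent was not tested. The 100 genes had a median of 0.12 log2 units above the neither mean in personal only replicate 5 and -0.10 in neither replicate 5.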
